A study of Mus musculus with 6 samples.

Results

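The 10 genes described here serve heme breakdown (Hmox1, Blvra, Blvrb), iron export (Slc40a1), iron storage (Fth1, Ftl1), iron uptake and transport (Tfrc, Slc11a1), heme transport (Slc48a1) and the transcription of an iron-recycling program (Spic). They were chosen by symbol, matched to Ensembl gene identifiers, and compared between tumor-associated macrophages (TAMs) of mice with a myeloid Cre aimed at Pdcd1, the gene of the inhibitory receptor PD-1, and of mice without Cre. All 10 were in the count table of 55421 genes, and all 10 passed the filter on low counts that left 14469 genes for the test. RNA-seq libraries came from live CD45+CD11b+F4/80+Ly6G- cells sorted on day 15 from MC17-51 fibrosarcomas, a tumor that the labels call M17, grown under the skin of mice 8 to 12 weeks old. The 3 control libraries were from Pdcd1f/f mice, which carry the floxed Pdcd1 alleles and no Cre. The 3 test libraries were from Pdcd1f/fLysMcre mice, which carry the same floxed alleles and Cre under the lysozyme promoter, active in macrophages and other myeloid cells. How many mice gave each library is not given in the sources used here, so the p-values measure the spread between these libraries. The question was whether a lower level of Cd163, the macrophage receptor for hemoglobin bound to haptoglobin, went with different levels of the genes that store and export iron.

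Macrophages take up hemoglobin and dying red cells, split heme and recover its iron. Heme leaves the phagolysosome through the transporter encoded by Slc48a1 and is opened by heme oxygenase 1, the product of Hmox1, which releases iron, carbon monoxide and biliverdin. Blvra and Blvrb each encode a biliverdin reductase. Iron is then held in ferritin, a shell of the heavy and light chains encoded by Fth1 and Ftl1, or leaves the cell through ferroportin, encoded by Slc40a1. Tfrc encodes the transferrin receptor that brings iron in, and Slc11a1 encodes a metal transporter of the phagosome membrane. Spic encodes an ETS-family factor that red pulp macrophages of the spleen need in order to develop.

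Of these 10 genes, 4 carry an iron-responsive element in their mRNA, a short hairpin that iron regulatory proteins bind when iron is scarce. At the start of an mRNA the bound hairpin holds back translation, and in the tail of the Tfrc mRNA it protects the transcript from decay. These elements are shown because protein output of ferritin and ferroportin can change through them with no change of mRNA, which is the only quantity measured here. The search of the GENCODE transcripts of GRCm38 required a C, any 5 bases (NNNNN), CAGTG, a base other than G, and 5 bases that pair with the first 5. This pattern spans 17 bases, and 6 bases were added on each side, so that 29 are printed. Capitals mark the loop, and the sequences are in the sense of the mRNA.
Fth1, 5′ UTR, chr19:9982732-9982760, plus strand: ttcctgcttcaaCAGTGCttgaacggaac
Ftl1, 5′ UTR, chr7:45459779-45459807, minus strand: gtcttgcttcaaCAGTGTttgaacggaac
Slc40a1, 5′ UTR, chr1:45925465-45925493, minus strand: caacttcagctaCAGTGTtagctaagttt
Tfrc, 3′ UTR, chr16:32631219-32631247, plus strand: aattatcggaagCAGTGCcttccataatt
Tfrc, 3′ UTR, chr16:32631598-32631626, plus strand: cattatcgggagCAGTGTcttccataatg
Tfrc, 3′ UTR, chr16:32631663-32631691, plus strand: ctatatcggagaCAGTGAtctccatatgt
Tfrc, 3′ UTR, chr16:32631710-32631738, plus strand: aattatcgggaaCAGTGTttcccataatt
Fth1, Ftl1 and Slc40a1 each held 1 match in the 5′ UTR, and Tfrc held 4 in the 3′ UTR. Among 21866 protein-coding genes, 23 (0.105%) held the pattern in the 5′ UTR and 99 (0.453%) in the 3′ UTR. The other 6 genes held no match to these letters in either UTR. A match is a description of the sequence, and binding was not measured.

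The 6 libraries held between 41833823 and 51417209 counts, at which 3 counts correspond to 0.0583 to 0.0717 CPM (counts scaled to a common library total), a limit that covers counting error only. Pdcd1 was near that limit, with 10, 12 and 15 counts in Pdcd1f/f and 7, 16 and 11 in Pdcd1f/fLysMcre TAMs, so its counts do not show the deletion. The genotype label was checked by Lyz2, the lysozyme gene that carries the Cre insertion, which was lower by 8.99 on the log2 scale (adjusted p = 2.4e-12), while its close copy and neighbor Lyz1 was higher by 4.54 (adjusted p = 8.75e-09), and reads of the pair could be split between them. The controls carry no Cre, so effects of Cre, of low Lyz2 and of Pdcd1 loss cannot be told apart. Transcripts of 4 Y-linked genes summed to between 1545 and 1914 normalized counts in Pdcd1f/f libraries. In Pdcd1f/fLysMcre libraries they summed to between 6267 and 7233, so sex composition and genotype cannot be told apart. Within each genotype, the library whose deviation from the genotype mean ran most against GC content is called the one that stood apart. Across 11565 genes the Spearman rho was -0.72 in Pdcd1f/f replicate 1, against 0.47 and 0.66 in replicates 2 and 3. It was -0.64 in Pdcd1f/fLysMcre replicate 2, against 0.17 and 0.66 in replicates 1 and 3. Replicate 3 of Pdcd1f/fLysMcre thus lay about as far out on the other side, so replicate 2 is not a single outlier there.

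Levels were compared between genes as CPM per kilobase of annotated exon. Ferritin stood far above the rest, with Ftl1 at 1171 to 1719 and Fth1 at 1111 to 1207 CPM per kilobase over the 6 libraries, ranges that overlap. Hmox1 followed at 228 to 299.6, then Tfrc at 70.2 to 84.0 CPM per kilobase. Slc11a1 (37.5 to 44.6) and Blvra (39.7 to 43.4) overlapped on this scale. Slc48a1 came next at 19.0 to 22.9, followed by Blvrb at 8.63 to 14.6 and Spic at 3.08 to 5.15 CPM per kilobase. The exporter gene Slc40a1 was lowest, at 0.814 to 1.03 CPM per kilobase, below Spic in every library. Storage transcripts were thus abundant and the export transcript scarce in both genotypes. The order of several genes depended on the length used. With the longest principal transcript in place of all annotated exons, a choice made after the data were seen, Fth1 was above Ftl1 with no overlap (2579 to 2802 against 1621 to 2380), and Blvrb overlapped with Slc48a1 (23.4 to 39.5 against 20.6 to 24.8 CPM per kilobase). Blvra (83.8 to 91.4) then lay above Slc11a1 (at most 71.3) with no overlap, and overlapped with Tfrc (88.8 to 106.3 CPM per kilobase).

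**Figure D1:**
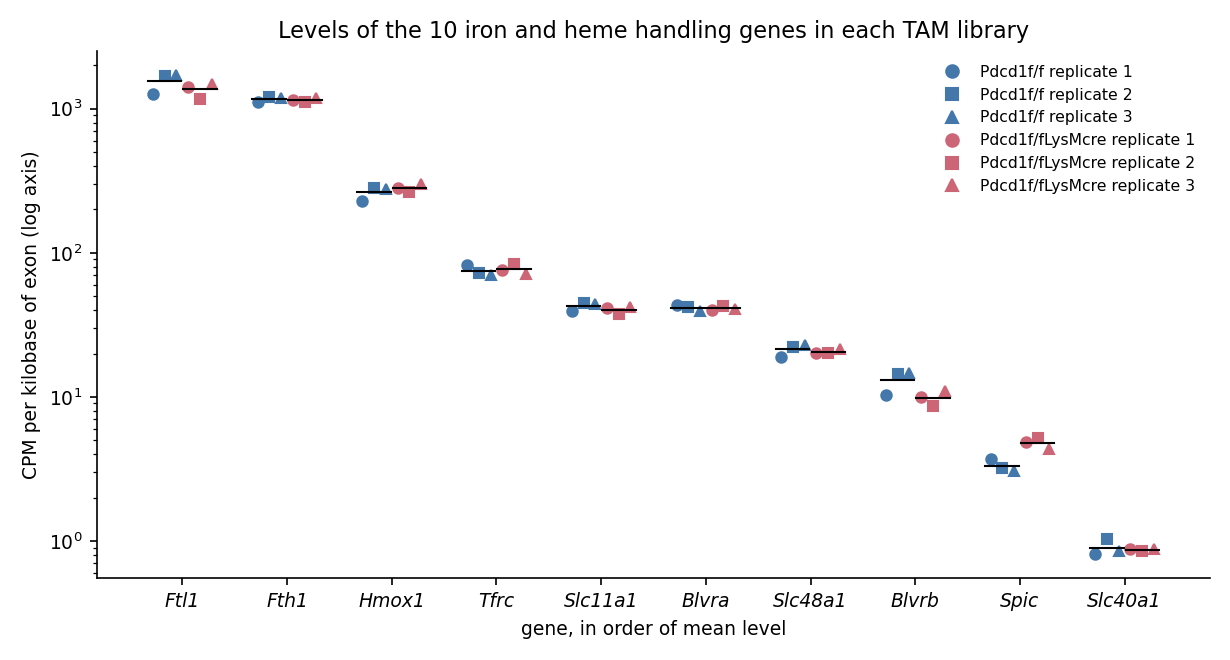
Levels of the 10 genes in each library, as CPM per kilobase of annotated exon on a log axis. Points are libraries and black lines are the means of 3 libraries of a genotype. Ferritin transcripts lie at 1111 to 1719 and Slc40a1 at 0.814 to 1.03, and only Spic shows 2 genotypes that do not overlap.

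Of the 10 genes 1 was called, at an adjusted p under 0.05 in edgeR's two-sided quasi-likelihood test with Benjamini-Hochberg adjustment over all genes. Spic rose, and no member fell. Over all 14469 genes tested 5.43% were called, 2.42% as higher and 3.01% as lower in Pdcd1f/fLysMcre TAMs, so 1 of 10 is near this background. With GC and length offsets 2741 genes (18.9%) were called, 1642 as higher and 1099 as lower, and 3 of the 10. Leaving out 1 library at a time gave 0 to 3 of the 10, with 3 without Pdcd1f/f replicate 1 and 0 without Pdcd1f/f replicate 2 or 3 or Pdcd1f/fLysMcre replicate 1 or 2. Of all genes tested, 21.6% were called without Pdcd1f/f replicate 1, and 1.51% to 3.56% when any other library was left out. The genotypes did not overlap in 1 of the 10 genes, against 27.2% of all genes tested. The median log2 fold change was -0.03 over the 10 genes and -0.0026 over all genes tested, with 3 of the 10 above 0 and 7 below. In bulk RNA, fewer cells of a type and less RNA per cell cannot be told apart, and this holds for each change given here.

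Cd163, the scavenger gene that the question starts from, fell. Its normalized counts, which are counts divided by a size factor for each library, were 4429, 4576 and 4940 in Pdcd1f/f and 2215, 2157 and 2112 in Pdcd1f/fLysMcre libraries. Every Pdcd1f/fLysMcre library was below every control library. The fold was 0.466 with a 95% interval from 0.420 to 0.516 (adjusted p = 9.0e-06), and Cd163 was called in all 18 alternatives tried. The storage, export and breakdown genes described next had intervals that lie above that of Cd163.

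Iron storage genes were at high levels in both genotypes. The ferritin heavy chain gene Fth1 (ENSMUSG00000024661, chr19:9980598-9985098, plus strand) had normalized counts of 183712, 196724 and 194793 in Pdcd1f/f and 187661, 181747 and 194758 in Pdcd1f/fLysMcre libraries. The genotypes overlapped over most of their range, with the highest and the lowest of the 6 values in Pdcd1f/f replicate 2 and Pdcd1f/fLysMcre replicate 2. The fold was 0.982, with a 95% interval from 0.895 to 1.08 (log2 fold change -0.03, standard error 0.06, adjusted p = 0.830). The ferritin light chain gene Ftl1 (ENSMUSG00000050708, chr7:45457944-45459884, minus strand) had 79609, 106112 and 109063 in Pdcd1f/f and 89878, 74007 and 94015 in Pdcd1f/fLysMcre libraries. The spread within a genotype was wider than for Fth1, with Pdcd1f/f replicate 1 and Pdcd1f/fLysMcre replicate 2 lowest. The fold was 0.876, with a 95% interval from 0.725 to 1.06 (adjusted p = 0.370).

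The size and the call of the Ftl1 difference varied with the libraries and the filter. Without Pdcd1f/f replicate 1 the log2 fold change was -0.33 and Ftl1 was called as lower (adjusted p = 0.0201), and without Pdcd1f/fLysMcre replicate 2, the other library that stood apart by GC content, it was -0.09 and not called (adjusted p = 0.761). Without both libraries it was -0.23 (adjusted p = 9.0e-04), and with GC and length offsets it was -0.06 and not called. With all 6 libraries and all genes of at least 1 count Ftl1 was also called (-0.19, adjusted p = 0.0394). The adjusted p ranged from 9.0e-04 to 0.761 over the alternatives. Ftl1 has a GC content of 58.1%, the highest of the 10 genes. Reads of ferritin pseudogenes were few. Ftl1-ps1, annotated as protein coding, held 452 to 760 counts a library against 77707 to 99579 for Ftl1, and the other 4 annotated ferritin pseudogenes held 0 to 44. How reads that map to several places were handled is not given in the sources used here, so reads of near-identical copies could be lost or moved between these genes.

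Ferritin transcripts of both chains together were 0.561%, 0.648% and 0.644% of all counts in Pdcd1f/f and 0.583%, 0.535% and 0.614% in Pdcd1f/fLysMcre libraries. The means were 0.618 ± 0.0487% and 0.578 ± 0.0401% (SD, n = 3 each), and an exact two-sided permutation test over all 20 assignments of 3 and 3 libraries gave p = 0.3, where 0.1 is the smallest p it allows. The count ratio of heavy to light chain was 2.31, 1.85 and 1.79 in Pdcd1f/f and 2.09, 2.46 and 2.07 in Pdcd1f/fLysMcre libraries. It was highest in the same 2 libraries that stood apart by GC content. The means were 1.98 ± 0.284 and 2.21 ± 0.217 (SD, n = 3 each, exact permutation p = 0.4), and the test was 1 of 3 such ratios tested, none of which could pass an adjustment at this number of libraries.

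The export gene was the scarcest of the 10. Slc40a1, the ferroportin gene (ENSMUSG00000025993, chr1:45908068-45926523, minus strand), had 347, 436 and 363 normalized counts in Pdcd1f/f and 376, 363 and 373 in Pdcd1f/fLysMcre libraries. The 3 Pdcd1f/fLysMcre values lay inside the range of the controls, whose highest library was replicate 2. The fold was 0.973, with a 95% interval from 0.817 to 1.16 (log2 fold change -0.04, standard error 0.11, adjusted p = 0.862). The sign turned to 0.07 on the log2 scale without Pdcd1f/f replicate 2, still without a call. Slc40a1 lies on the chromosome of Pdcd1, 48.1 Mb from it.

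Heme breakdown began with a gene at high level in both genotypes. Hmox1, encoding heme oxygenase 1 (ENSMUSG00000005413, chr8:75093621-75100589, plus strand), had 18855, 23103 and 23109 normalized counts in Pdcd1f/f and 23285, 21646 and 24714 in Pdcd1f/fLysMcre libraries. Pdcd1f/f replicate 1 was lowest of the 6 and the other 5 overlapped. The fold was 1.07, with a 95% interval from 0.935 to 1.23 (log2 fold change 0.10, standard error 0.09, adjusted p = 0.521). Without Pdcd1f/f replicate 1 the log2 fold change was -6.1e-05 (adjusted p = 0.9997), and with GC and length offsets it was 0.18 and called as higher (adjusted p = 0.0211). The adjusted p ranged from 0.0119 to 0.9997 over the alternatives. The constitutive heme oxygenase gene Hmox2 had 5179 to 5252 normalized counts in Pdcd1f/f and 5178 to 5316 in Pdcd1f/fLysMcre libraries (log2 fold change 0.01, adjusted p = 0.957). The count ratio of Hmox1 to Hmox2 was 4.16 ± 0.471 and 4.44 ± 0.247 (SD, n = 3 each, exact permutation p = 0.5).

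The genes of the biliverdin reductases differed in what the libraries showed. Blvra (ENSMUSG00000001999, chr2:127070665-127097084, plus strand) had 5020, 4826 and 4600.0 normalized counts in Pdcd1f/f and 4618, 4905 and 4679 in Pdcd1f/fLysMcre libraries. The genotypes overlapped, and the fold was 0.984 with a 95% interval from 0.894 to 1.08 (adjusted p = 0.858). Blvrb (ENSMUSG00000040466, chr7:27447978-27466144, plus strand), whose product also reduces flavins, had 1367, 1874 and 1924 in Pdcd1f/f and 1306, 1132 and 1444 in Pdcd1f/fLysMcre libraries. Only Pdcd1f/f replicate 1 overlapped with the Pdcd1f/fLysMcre libraries, and the other 2 control libraries were above all of them. The fold was 0.753, with a 95% interval from 0.614 to 0.925 (log2 fold change -0.41, standard error 0.13), which did not pass the adjustment over all genes (adjusted p = 0.0983).

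Blvrb was below 0 on the log2 scale in all 18 alternatives and was called as lower in 8 of them, from -0.31 to -0.56. DESeq2 called it (adjusted p = 0.0290), as did the fit with GC and length offsets (log2 fold change -0.31, adjusted p = 0.0328), the fit without Pdcd1f/f replicate 1 (-0.56, adjusted p = 0.00219) and the fit without both libraries that stood apart (-0.47, adjusted p = 1.2e-04). It was not called in 5 of the 6 fits on 5 libraries (adjusted p = 0.0834 to 0.342), with -0.32 (adjusted p = 0.304) without Pdcd1f/fLysMcre replicate 2. The adjusted p ranged from 1.2e-04 to 0.342 over the alternatives.

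Genes of iron uptake and of transport out of the phagosome were near 1-fold. The transferrin receptor gene Tfrc (ENSMUSG00000022797, chr16:32608920-32632794, plus strand) had 24005, 21122 and 20545 normalized counts in Pdcd1f/f and 22221, 24518 and 20841 in Pdcd1f/fLysMcre libraries. The genotypes overlapped, with the highest value of each in the libraries that stood apart by GC content. The fold was 1.03, with a 95% interval from 0.910 to 1.17 (log2 fold change 0.04, standard error 0.08, adjusted p = 0.783), and the sign turned with GC and length offsets (-0.07, adjusted p = 0.252). Slc11a1 (ENSMUSG00000026177, chr1:74375195-74386062, plus strand), also known as Nramp1, had 6914, 7758 and 7742 in Pdcd1f/f and 7184, 6553 and 7375 in Pdcd1f/fLysMcre libraries. The values interleaved, and the fold was 0.943 with a 95% interval from 0.844 to 1.05 (adjusted p = 0.508). Slc11a1 lies 19.7 Mb from Pdcd1. The heme transporter gene Slc48a1 (ENSMUSG00000081534, chr15:97778520-97792692, plus strand), also known as HRG1, had 2469, 2873 and 2978 in Pdcd1f/f and 2612, 2600.0 and 2783 in Pdcd1f/fLysMcre libraries. All 3 Pdcd1f/fLysMcre values lay inside the control range, and the fold was 0.963 with a 95% interval from 0.849 to 1.09 (adjusted p = 0.715). Both signs turned with the offsets, to 0.03 for Slc11a1 and 0.08 for Slc48a1, with no call. The end of Slc48a1 overlaps Hdac7 on the other strand, which held 329 to 548 counts, and whether reads were counted by strand is not given in the sources used here.

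Spic was the only member that passed the test. It (ENSMUSG00000004359, chr10:88674772-88685015, minus strand) had 725, 519 and 512 counts in Pdcd1f/f and 954, 980 and 805 in Pdcd1f/fLysMcre libraries, or 672, 580 and 561 and 883, 933 and 791 normalized counts. Every Pdcd1f/fLysMcre library was above every control library, with Pdcd1f/f replicate 1 and Pdcd1f/fLysMcre replicate 2 highest in their genotypes. The means were 604 ± 59.7 and 869 ± 71.9 normalized counts (SD, n = 3 each). The fold was 1.44, with a 95% interval from 1.23 to 1.68 (log2 fold change 0.52, standard error 0.10, adjusted p = 0.0150). The direction held in all 18 alternatives, with log2 fold changes from 0.45 to 0.60. The call was lost in 4 of the 6 fits on 5 libraries, those without Pdcd1f/f replicate 2 (adjusted p = 0.0937) or 3 (0.0619) and without Pdcd1f/fLysMcre replicate 1 (0.0873) or 2 (0.0636). It was also lost at a threshold of 0.01, and the adjusted p ranged from 6.8e-05 to 0.0937 over the alternatives. Spic lies on the chromosome of Lyz2, 28.6 Mb from it.

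**Figure D2:**
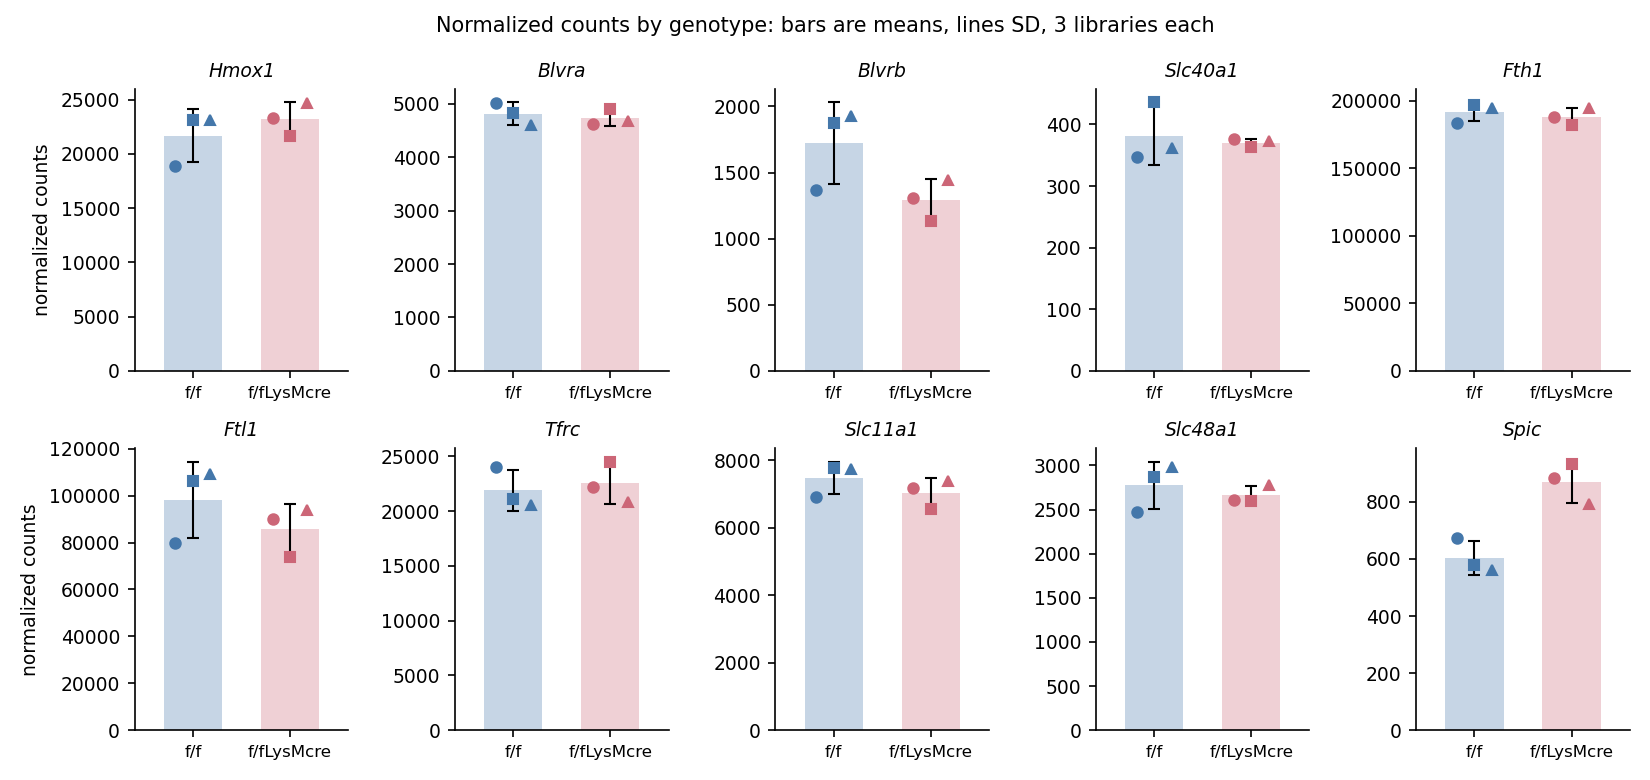
Normalized counts of each gene in Pdcd1f/f (blue) and Pdcd1f/fLysMcre (red) libraries, on axes that start at 0. Bars are means of 3 libraries, lines are SD, and circles, squares and triangles are replicates 1, 2 and 3. The genotypes are separate for Spic (561 to 672 against 791 to 933) and overlap for the other 9 genes.

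The rise of Spic was set beside the other genes known from red pulp macrophages, since Spic is best known there. Of 8 genes of that list 1 rose, Spic itself, and 3 fell, namely Cd163, Vcam1 (log2 fold change -0.56, adjusted p = 0.0015) and Siglec1 (-0.74, adjusted p = 0.0032). The other 4, with Slc40a1 and Hmox1 among them, were not called. Treml4, 1 of these 4, had at most 94.97 normalized counts in Pdcd1f/f and at least 98.1 in Pdcd1f/fLysMcre libraries, which did not overlap (log2 fold change 0.55, adjusted p = 0.122). Over the list 4 genes were above 0 and 4 below, with a median of 0.03, and 4 of 8 were called against 5.43% of all genes tested. Cd5l, a defining gene of these cells, had 37.2 to 44.8 normalized counts in the 6 libraries. Spic, Slc40a1 and Hmox1 belong to this list and to the 10 genes alike. The list was chosen with earlier results of these data known and holds Cd163 and Spic, so its share called is not an independent comparison.

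Each of the 10 genes was either highest or lowest of its genotype in both libraries that stood apart by GC content. Tfrc, Spic and Blvra, with GC contents of 39.8%, 41.8% and 44.6%, were highest in both. The other 7 genes were lowest in both, among them Slc40a1 at 42.0% and the 6 genes of higher GC content, from Fth1 to Ftl1 at 58.1%. Over all genes tested 26.7% were highest and 26.6% lowest in both. What made these libraries differ was not tested.

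**Figure D3:**
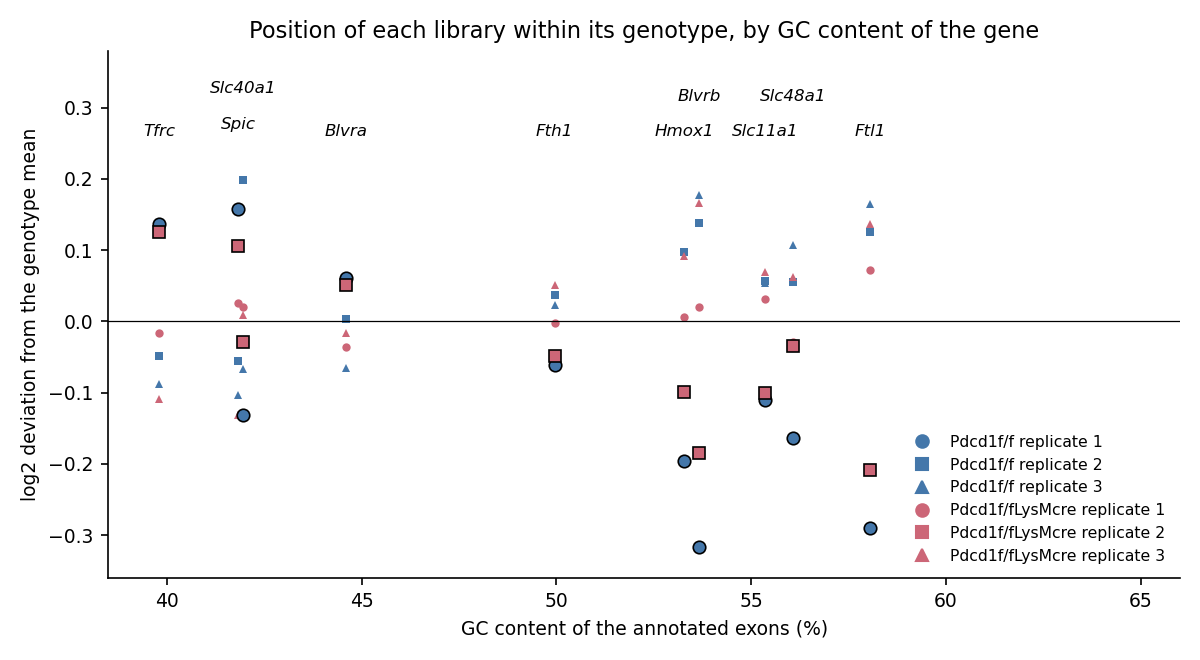
Log2 deviation of each library from the mean of its genotype, for each of the 10 genes, against GC content. The GC content is that of the longest annotated transcript of the gene, which the axis names annotated exons. Outlined points are Pdcd1f/f replicate 1 and Pdcd1f/fLysMcre replicate 2, which lie above 0 for Tfrc, Spic and Blvra and below 0 for the other 7 genes.

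Other genes of iron and heme handling were counted from a list of 75, of which 74 had an identifier in the table and 61 were tested. Of the 61, 2 rose and 5 fell, or 11.5%, against 5.43% of all genes tested. The list holds Cd163 and was chosen with earlier results of these data known, so the 2 shares are not an independent comparison. The 7 became 20 without Pdcd1f/f replicate 1 (32.8%, against 21.6% of all genes tested in that fit). They became 3 without Pdcd1f/f replicate 2 or Pdcd1f/fLysMcre replicate 1 (4.92%, against 1.51% of all genes in each fit). Without Pdcd1f/f replicate 3 they became 4 (6.56%, against 2.38%). With all 6 libraries the median log2 fold change of the 61 was -0.07, with 22 above 0 and 39 below. Besides Cd163, those that fell included genes of circulating iron transport, iron sensing and transcription. Trf, encoding transferrin, had 8663, 10500.1 and 10121 normalized counts in Pdcd1f/f and 5784, 5257 and 5999.7 in Pdcd1f/fLysMcre libraries. All Pdcd1f/fLysMcre values were below the controls, and the fold was 0.583 with a 95% interval from 0.511 to 0.664 (adjusted p = 7.1e-04). Hfe, whose product binds the transferrin receptor and takes part in iron sensing, had 3071, 3541 and 3504 in Pdcd1f/f and 2194, 2094 and 2127 in Pdcd1f/fLysMcre libraries. Again the genotypes did not overlap, and the fold was 0.635 with a 95% interval from 0.567 to 0.712 (adjusted p = 8.3e-04). Trf and Hfe were called in all 18 alternatives.

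Maf, encoding a transcription factor expressed in macrophages, fell by 0.26 on the log2 scale (adjusted p = 0.0391). It was called in 2 of the 6 fits on 5 libraries, with adjusted p up to 0.176. Genes that rose were Flvcr1 and Steap2. Flvcr1, encoding a transporter first described as a heme exporter, had 4551, 4370 and 4507 normalized counts in Pdcd1f/f and 5804, 5753 and 5455 in Pdcd1f/fLysMcre libraries. Its fold was 1.27, with a 95% interval from 1.16 to 1.39 (adjusted p = 0.0086), and the call held in 4 of the 6 fits on 5 libraries. Steap2, encoding a metalloreductase, had 108, 108 and 74.5 in Pdcd1f/f and 166, 156 and 147 in Pdcd1f/fLysMcre libraries. Its log2 fold change was 0.69, with a 95% interval from 0.31 to 1.08 (adjusted p = 0.0468), and the call held in 1 of the 6 such fits, that without Pdcd1f/f replicate 1. Without Pdcd1f/fLysMcre replicate 2 the adjusted p was 0.119. The call was also lost with library size alone (adjusted p = 0.0525) and at a threshold of 0.01.

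In most groups with no call, the member with the highest level is given. None of 8 tested genes of heme synthesis was called (median -0.14), and Alas1, encoding the first enzyme of the path, was at -0.19 (adjusted p = 0.150). Of these 8 genes 7 were below 0, and the genotypes did not overlap in 4, against 27.2% of all genes tested. Alas1 was called as lower without Pdcd1f/f replicate 1 (-0.26, adjusted p = 0.0195) and without both libraries that stood apart (-0.21, adjusted p = 0.00595), and in no other alternative. None of 3 genes of storage and iron chaperones was called, and Pcbp2, encoding an iron chaperone, was at 0.05 (adjusted p = 0.583). Of the export oxidases and hepcidin genes only Cp, encoding ceruloplasmin, was expressed enough to be tested, at -0.40 (adjusted p = 0.125). Its product oxidizes iron as it leaves the cell. Cp had 355, 368 and 326 normalized counts in Pdcd1f/f and 229, 324 and 243 in Pdcd1f/fLysMcre libraries, which did not overlap. It was below 0 in all 18 alternatives and called as lower in 5, with GC and length offsets (-0.49, adjusted p = 0.00807), with these and the replicate block (-0.51, 0.00234), with all genes of at least 1 count (-0.40, 0.0429), without Pdcd1f/fLysMcre replicate 2 (-0.56, 0.0476) and without both libraries that stood apart (-0.56, 0.00342). The adjusted p ranged from 0.00234 to 0.361 over the alternatives. None of 10 genes of mitochondrial iron was called (median -0.02). The groups given next held 1 or 2 calls each, beside 5.43% called among all genes tested. In heme and hemoglobin scavenging 1 of 4 genes was called, which was Cd163, with 1 of the 4 above 0 and 3 below. The genotypes did not overlap in 2 of the 4. Lrp1 was the other gene, with 48881 to 58959 normalized counts in Pdcd1f/f and 31858 to 48392 in Pdcd1f/fLysMcre libraries (-0.40, adjusted p = 0.0956). Hp was at -0.29 (adjusted p = 0.221). In heme transport 1 of 5 was called, which was Flvcr1. In iron uptake and reduction 2 of 12 were called, Trf and Steap2, in iron sensing 1 of 7, Hfe, and in heme-responsive transcription 2 of 10, Maf among them.

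**Figure D4:**
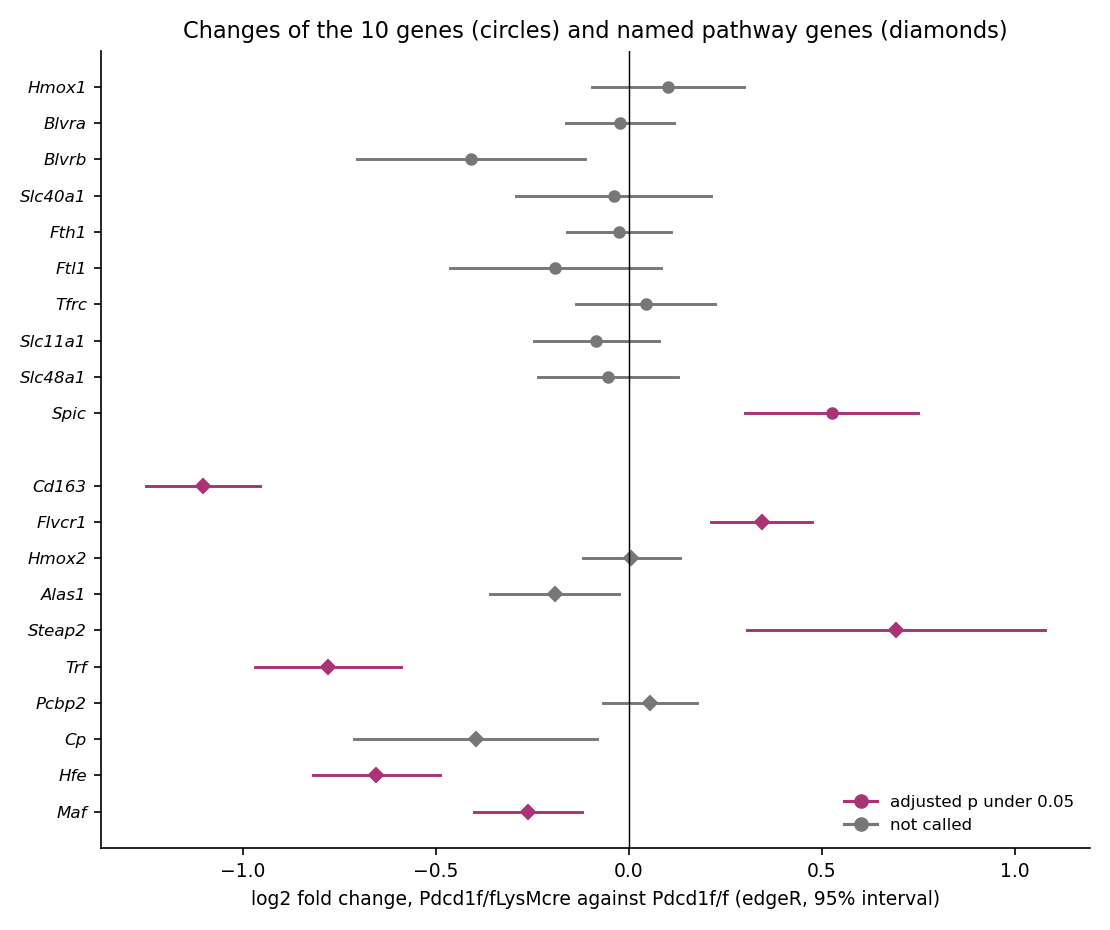
Log2 fold change of Pdcd1f/fLysMcre against Pdcd1f/f TAMs with its 95% interval from edgeR. Circles are the 10 genes, diamonds are named genes of the wider list, and purple marks an adjusted p under 0.05. Spic is the only purple circle, and Cd163 at -1.10 lies farthest from 0.

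Markers of other cells were checked beside these values. Erythroid cells hold heme and iron genes of their own, and their defining genes were near 0. Hbb-bs had at most 15 counts and Hba-a1 at most 4 in a library, and Epb42 and Slc4a1 had 0 in all 6. Only Epor was tested, and it fell, from 11, 11 and 13 counts in Pdcd1f/f to 0, 1 and 2 in Pdcd1f/fLysMcre libraries (adjusted p = 0.0184). The summed normalized counts of the 11 erythroid genes found were 16.4 to 43.6 in Pdcd1f/f and 3.70 to 13.8 in Pdcd1f/fLysMcre libraries, against 346.8 to 436 for Slc40a1 alone in the controls. Of 10 macrophage genes 6 fell and none rose (median log2 fold change -0.34). Among all genes tested 3.01% were called as lower, which is also the background for the marker counts that follow. The summed level of the 10 macrophage genes was 369766 to 436201 in Pdcd1f/f and 308195 to 330924 in Pdcd1f/fLysMcre libraries. Its part in the fall of Cd163, Trf, Hfe and Maf was not tested. Of 6 monocyte genes 2 fell, with a summed level of 73739 to 78253 in Pdcd1f/f and 51721 to 59055 in Pdcd1f/fLysMcre libraries. Its part in these results was not tested either. Of the tested markers of other cells, 1 of 5 neutrophil, 2 of 7 fibroblast and 1 of 4 endothelial genes fell, and none of 2 T and NK cell and 1 B cell gene was called. Of 4 dendritic cell genes none was called and 4 were above 0, with a median log2 fold change of 0.55. The list of 6 such genes summed to 247 to 323 normalized counts in Pdcd1f/f and 329 to 392 in Pdcd1f/fLysMcre libraries, and its part in the rise of Spic was not tested.

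Across the alternatives the fold changes of the storage and export genes stayed closer to 0 than that of Cd163. Log2 fold changes ranged from -0.06 to 0.01 for Fth1, from -0.33 to -0.06 for Ftl1 and from -0.13 to 0.07 for Slc40a1. Those of Cd163 ranged from -1.15 to -1.06.

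**Figure D5:**
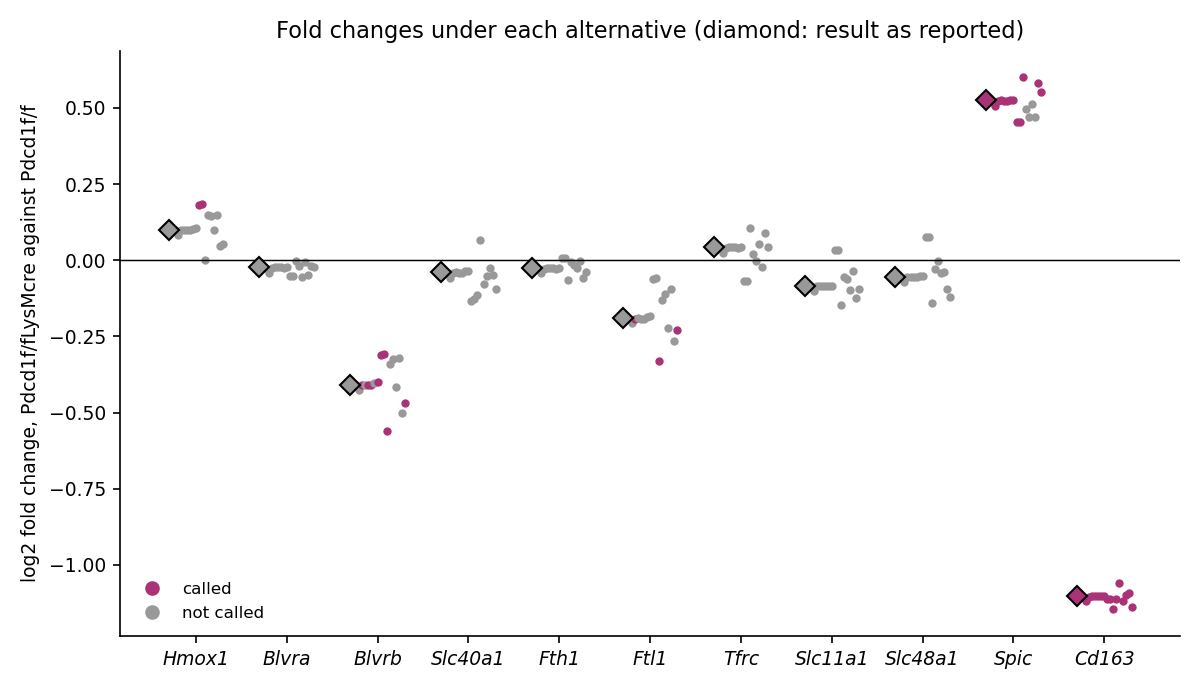
Log2 fold change of each of the 10 genes and of Cd163 under each alternative. Large diamonds are the values reported above, small points are the 18 alternatives, and purple marks a call. Blvrb and Ftl1 lie below 0 and Spic above 0 throughout, and Cd163 stays between -1.15 and -1.06.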

How the data were processed

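The authors removed adapters, aligned paired-end reads of stranded polyA libraries to GRCm38 and counted them on Ensembl genes. The submitters' processing notes name FastQC 0.11.5, cutadapt 2.5, STAR 2.7.3a, featureCounts (Subread 1.6.2) and DESeq2 1.24.0. The deposited files hold raw counts per gene and a normalized signal table of 16552 genes, in which the authors divided counts by a size factor of 0.895 to 1.08 per library. Here raw counts were tested with edgeR 4.0.16 (R 4.3.3) by filterByExpr (minimum count 10, minimum total 15), TMM, robust glmQLFit and two-sided glmQLFTest on genotype alone, with Benjamini-Hochberg adjustment over 14469 genes and a threshold of 0.05. Intervals of 95% came from the standard error of that fit. Ratios were compared with exact permutation tests (scipy 1.17.1).

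The members and all lists were chosen with earlier results of these data known. Named genes are the 10 members, Cd163, pathway genes past the threshold, and the gene of highest mean count where no gene of a subgroup passed. A few genes that this rule names are not reported here. Vcam1, Siglec1, Cd5l, Treml4, Lrp1, Hp, Hdac7 and the ferritin pseudogenes were named after their values were seen. So were Epor and the other erythroid genes given singly. Positions, lengths, GC content and transcripts came from GENCODE release M21 of GRCm38, which paired 14454 tested identifiers with a symbol.

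Alternatives were RLE size factors, library size alone, genes with at least 1 count, at least 10 counts in every library, DESeq2 1.42.0 with Benjamini-Hochberg or Storey q-values, limma-trend (limma 3.58.1) on log2(value + 1), the replicate number as a block, loess offsets for GC content and length (span 0.5) with and without that block, each library left out, both libraries apart by GC content left out, and a threshold of 0.01. Libraries of 1 genotype differed by more than sampling noise, with a chi-square per gene of 5.42 to 43.0, and each was counted as a replicate. Scripts were tested on simulated data. Replicate libraries may share handling, so p-values may reflect technical spread.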

Additional observations from a re-analysis of the deposited data

How the results depend on the processing

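Cd163 kept its direction and call in all 18 alternatives, with log2 fold changes from -1.15 to -1.06, and Slc40a1, Fth1, Tfrc, Slc11a1, Slc48a1 and Blvra were called in none. Normalization by RLE or library size, a filter of at least 10 counts in every library and limma changed no call among the 10 genes.

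With GC and length offsets Hmox1 was called at 0.18 (adjusted p = 0.0211) and Blvrb at -0.31 (0.0328), while the signs of Fth1 (0.0068), Tfrc (-0.067), Slc11a1 (0.0346), Slc48a1 (0.0777) and Pcbp2 (-0.0229) turned without a call. The same offsets with the replicate block gave 0.18 for Hmox1 (adjusted p = 0.0119), -0.31 for Blvrb (0.0125), 0.00683 for Fth1, -0.067 for Tfrc, 0.0348 for Slc11a1, 0.0771 for Slc48a1 and -0.0207 for Pcbp2. With all genes of at least 1 count Ftl1 was called at -0.19 (adjusted p = 0.0394) and Blvrb at -0.41 (4.5e-04). DESeq2 called Blvrb at -0.41 (adjusted p = 0.0290, Storey q = 0.0177). Without both libraries apart by GC content Ftl1 was called at -0.23 (adjusted p = 9.0e-04) and Blvrb at -0.47 (1.2e-04). At a threshold of 0.01 Spic, at 0.52, was not called. With library size alone Hmox2 was at -0.0114, and Steap2 was not called (adjusted p = 0.0525), which left 6 pathway genes.

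Called genes among the 10, the other pathway genes and all genes numbered 1, 7 and 786 (5.43% of 14469). With at least 1 count they numbered 3, 14 and 1951 (7.32% of 26637 genes fitted). DESeq2 gave 2, 11 and 1517 (5.70% of 26637), and Storey q-values gave 2, 12 and 1908 (7.16%). These fits held 72 of the pathway genes, against 61 in the main fit. Offsets gave 3, 17 and 2741 (18.9%), and offsets with block gave 3, 18 and 2861 (19.8%). Without both libraries apart there were 3, 24 and 3757 (26.2%). A threshold of 0.01 left 0, 4 and 283 (1.96%). The offsets moved the share of higher calls from 350 of 786 to 1642 of 2741.

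Leaving out 1 library at a time gave 0 to 3, 3 to 20 and 222 to 3181 called genes, the last 1.51% to 21.6% of all genes tested. These were 3, 20 and 3181 without Pdcd1f/f replicate 1, 0, 3 and 224 without replicate 2, 0, 4 and 354 without replicate 3, 0, 3 and 222 without Pdcd1f/fLysMcre replicate 1, 0, 7 and 370 without replicate 2, and 1, 5 and 530 without replicate 3. Log2 fold changes then ranged from -6.1e-05 to 0.15 for Hmox1, -0.11 to 0.0669 for Slc40a1, -0.33 to -0.0937 for Ftl1, -0.0216 to 0.11 for Tfrc, -0.56 to -0.32 for Blvrb, 0.47 to 0.60 for Spic and -0.0117 to 0.0137 for Hmox2. The cause of these differences was not tested.

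Deviations of same-numbered libraries had correlations of -0.01, -0.10 and 0.22, and Pdcd1f/f replicate 1 correlated best with Pdcd1f/fLysMcre replicate 2 (0.24). These values do not show a pairing by replicate number. They cannot exclude one either, since the deviations also follow GC content. With the replicate number as a block 2 of the 10 genes were called, with Blvrb at -0.40 (adjusted p = 0.0497). In that fit 8 pathway genes and 1027 genes in all (7.10% of those tested) were called. Depth limits Pdcd1 and the erythroid genes, which had 0 to 16 counts.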
